A study of Mus musculus with 9 samples.

Results

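The genes described here encode the proteins of the centromere and the kinetochore. They were chosen by name: every gene whose symbol is Cenp followed by letters (21 genes), and 16 further genes of the outer kinetochore and of the loading of CENP-A, which gives 37 of the 54532 genes listed. Of these, 34 belong to a complex of the kinetochore or to CENP-A loading, and 3 (Cenpb, Cenpj and Cenpv) belong to none of these. The 37 genes lie on 17 chromosomes.

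The data are 9 RNA sequencing libraries of b.end3, a mouse line labelled as C57BL/6 brain microvessel endothelial cells. The 3 Ctrl libraries came from cells labelled untreated. The 3 Ep1 and 3 Ep2 libraries came from cells given photodynamic therapy (PDT), in which light excites a photosensitizer: a monolayer took up Porfimer sodium (300 µg/mL, 90 min) before exposure to a 635 nm laser at 100 mW/cm2, at a light dose of 10 J/cm2 in Ep1 and 20 J/cm2 in Ep2. The sources used here do not say whether Ctrl cells received the photosensitizer or light alone, how long after PDT the RNA was taken, or whether the libraries of a group came from separate cultures, so the p-values measure the spread between these libraries, which may be technical.

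The kinetochore is the protein assembly that joins each chromosome to the spindle during mitosis. The histone variant CENP-A marks the centromere, the constitutive centromere-associated network (CCAN) sits on that chromatin through the cell cycle, and the Knl1, Mis12 and Ndc80 complexes are built on it to bind microtubules. Many of these genes are transcribed mainly in G2 and M phase, under promoters that carry a cell cycle homology region (CHR) and boxes for the factor NF-Y, while others carry sites for E2F factors.

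Promoter letters of 8 of the genes are shown because the 6 first genes fell at the higher dose and carry a CHR, and the 2 last are the only 2 of the 37 genes that rose. Both choices were made after the values were seen. Each window runs from 120 bases before to 30 bases after the RefSeq transcription start (GRCm38.p6), is written 5′ to 3′ on the strand of the gene, and has matches to the motifs in capitals (CHR as TTTGAA or TTCGAA, NF-Y box as CCAAT, E2F site as TTGGCGC or TTCCCGC, on either strand). The windows are Cenpm (chr15:82244307-82244456, minus strand), Spc25 (chr2:69206184-69206333, minus strand), Cenpf (chr1:189688057-189688206, minus strand), Cenpa (chr5:30666766-30666915, plus strand), Ska3 (chr14:57826134-57826283, minus strand), Cenpn (chr8:116921620-116921769, plus strand), Zwint (chr10:72654726-72654875, plus strand) and Cenpc1 (chr5:86065554-86065703, minus strand).
Cenpm: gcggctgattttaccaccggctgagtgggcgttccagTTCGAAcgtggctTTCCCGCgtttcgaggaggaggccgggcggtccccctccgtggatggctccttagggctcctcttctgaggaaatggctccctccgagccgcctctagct
Spc25: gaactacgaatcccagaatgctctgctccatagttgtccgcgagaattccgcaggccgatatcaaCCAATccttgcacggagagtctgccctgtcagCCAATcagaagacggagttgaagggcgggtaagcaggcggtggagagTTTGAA
Cenpf: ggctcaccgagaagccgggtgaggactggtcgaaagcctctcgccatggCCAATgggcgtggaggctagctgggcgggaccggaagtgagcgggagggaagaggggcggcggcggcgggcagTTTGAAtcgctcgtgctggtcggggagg
Cenpa: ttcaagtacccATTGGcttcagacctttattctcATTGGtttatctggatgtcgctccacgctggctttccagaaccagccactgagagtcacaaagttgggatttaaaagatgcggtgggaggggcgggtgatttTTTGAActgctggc
Ska3: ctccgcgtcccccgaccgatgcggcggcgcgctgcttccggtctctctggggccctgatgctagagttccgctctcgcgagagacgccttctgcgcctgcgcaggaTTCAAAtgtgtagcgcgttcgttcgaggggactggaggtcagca
Cenpn: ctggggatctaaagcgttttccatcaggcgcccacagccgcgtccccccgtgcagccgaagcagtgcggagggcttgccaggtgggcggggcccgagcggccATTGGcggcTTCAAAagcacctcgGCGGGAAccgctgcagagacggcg
Zwint: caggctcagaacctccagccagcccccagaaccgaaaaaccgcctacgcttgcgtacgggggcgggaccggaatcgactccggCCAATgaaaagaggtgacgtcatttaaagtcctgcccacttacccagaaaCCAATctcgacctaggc
Cenpc1: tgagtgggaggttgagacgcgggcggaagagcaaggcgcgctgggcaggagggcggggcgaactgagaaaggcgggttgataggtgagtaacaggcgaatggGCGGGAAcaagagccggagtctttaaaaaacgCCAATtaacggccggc

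Levels are given as FPKM, fragment counts scaled for gene length and library size, so genes can be compared with each other. All 37 genes reached 1 FPKM in at least 3 libraries, and 35 did so in every library; Cenpu and Cenpp went below it in Ep2. Mean levels in Ctrl ran from 1.53 FPKM for Cenpk to 75.6 FPKM for Cenpb, with a median of 9.27 FPKM. The least covered gene had 39 fragments in 1 library and the most covered 7484.

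**Figure D1:**
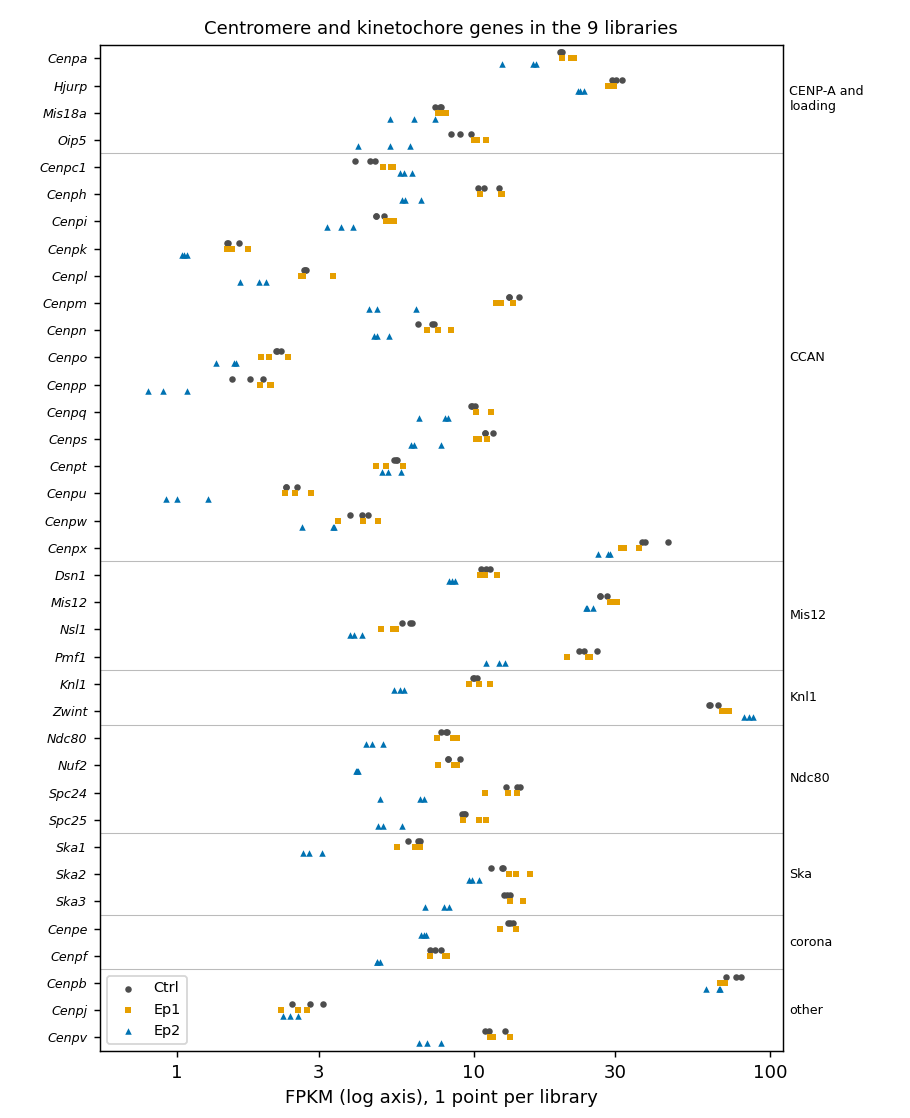
FPKM of the 37 genes on a log axis, with 1 point for each of the 3 libraries of Ctrl, Ep1 and Ep2 and the genes ordered by complex. The Ep2 points of 33 genes lie below all Ctrl points, and those of Zwint and Cenpc1 lie above them.

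The label of the cells was checked against 18 endothelial markers. Only 4 of them (Flt1, Egfl7, Eng and Slc2a1) reached 1 FPKM in at least 3 libraries, 13 stayed below it in every library, and Emcn, Erg, Sox17 and Robo4 were listed at 0 throughout. Pecam1 had a mean of 0.143 FPKM in Ctrl and Cdh5 0.857 FPKM, whereas Flt1 had 6.90 FPKM and Slc2a1 93.2 FPKM. Among the epithelial markers, Krt8 had 640, Krt18 237 and Krt19 174 FPKM in Ctrl. Epcam had 0.812, Cdh1 0.0338 and Krt14 0.0199 FPKM, and Krt5 and Krt7 were listed at 0 throughout. Most of the 18 levels thus go against the endothelial label, the epithelial markers were mixed, and the cells are called b.end3 below. The summed level of the 18 markers was 104 to 106 FPKM in Ctrl, 107 to 128 FPKM in Ep1 and 133 to 180 FPKM in Ep2. Most of it was Slc2a1 alone, with a mean of 93.2 FPKM in Ctrl and 134 FPKM in Ep2. The sum of 8 epithelial markers, 4 of which reached 1 FPKM in 3 libraries, was 1029 to 1081, 937 to 1041 and 1155 to 1372 FPKM. The sum of 6 macrophage markers, of which Cd68 alone reached that level, was 23.2 to 25.2, 20.3 to 25.3 and 76.8 to 92.1 FPKM. That of 9 fibroblast and mural markers, of which Col1a1 alone reached it, was 7.91 to 8.17, 6.67 to 7.57 and 7.62 to 9.25 FPKM. Their part in the results was not tested.

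At 10 J/cm2, no centromere or kinetochore gene passed the test. The 37 log2 fold changes of Ep1 against Ctrl, on the log2(FPKM + 1) scale, lay between -0.26 for Cenpx and 0.21 for Ska2 with a median of 0.04, where the median of all 11727 tested genes was -0.01. With limma, 0 of the 37 had an adjusted p below 0.05, 6 had an unadjusted p below 0.05 (Cenpc1, Cenpx, Mis12, Nsl1, Ska2 and Zwint), and voom on fragments recovered from the FPKM called 1, Cenpx. The background with limma was 11.3% of tested genes past the adjusted p in either direction, and with voom 1993 of 14112 tested genes passed. With limma, the share of all tested genes with an unadjusted p below 0.05 is larger than 11.3% and was not computed. The 6 genes are therefore not a result about this set. All 95% confidence intervals lay within -0.44 to 0.43.

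At 20 J/cm2, most of the genes fell. Of the 37, 33 were lower in Ep2 than in Ctrl with an adjusted p below 0.05 (background 29.3%), 2 were higher (background 23.9%), and 2, Cenpt and Cenpj, did not pass. A further threshold, an absolute log2 fold change above 0.6, was met by 15 genes, all lower, against a background of 5.87%. The median log2 fold change was -0.49, beside -0.03 for all tested genes, and the mean level in Ep2 was between 38.4% (Cenpm) and 134.7% (Cenpc1) of that in Ctrl, with a median of 68.1% and 6 genes below 50%. In 33 genes all 3 Ep2 libraries lay below all 3 Ctrl libraries (background 32.7%), and in 2 all lay above (background 27.0%). Over all tested genes the second threshold called 387 higher and 688 lower, 1159 and 1048 with voom, and 487 and 560 after a correction for gene length. In bulk RNA, fewer cells in G2 and M phase and less of each RNA per cell cannot be told apart.

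The Ndc80 complex, the rod that holds the microtubule, was the complex in which every subunit passed both thresholds, 4 of 4, with a median log2 fold change of -0.82. Nuf2, which pairs with Ndc80 at the microtubule end of the rod, had 8.18, 8.16 and 9.01 FPKM in Ctrl, 7.59, 8.78 and 8.58 FPKM in Ep1, and 4.004, 4.09 and 4.04 FPKM in Ep2. Its Ep2 libraries were far below all others and close to each other (log2 fold change -0.90, SE 0.06, adjusted p = 6.75e-06). Spc24, at the inner end of the rod, had 13.99, 14.3 and 12.8 FPKM in Ctrl, 10.9, 13.97 and 13.001 FPKM in Ep1, and 6.57, 6.79 and 4.82 FPKM in Ep2. The Ep2 libraries did not overlap those of either other group, and the lowest was Ep2 replicate 3 (log2 fold change -1.07, SE 0.12, adjusted p = 9.77e-05).

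Ndc80, the subunit that contacts the microtubule, had 8.13, 8.05 and 7.78 FPKM in Ctrl, 7.54, 8.80 and 8.51 FPKM in Ep1, and 4.95, 4.33 and 4.54 FPKM in Ep2. Ep1 spread over both sides of Ctrl, and Ep2 was lower than both groups (log2 fold change -0.68, SE 0.06, adjusted p = 3.43e-05). Spc25, the partner of Spc24, had 9.30, 9.16 and 9.34 FPKM in Ctrl, 9.19, 11.03 and 10.5 FPKM in Ep1, and 5.74, 4.76 and 4.93 FPKM in Ep2. Again only the Ep2 libraries stood apart, at 55.5% of the Ctrl mean (log2 fold change -0.74, SE 0.08, adjusted p = 5.08e-05).

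The Ska complex, which follows the ends of microtubules together with Ndc80, fell unevenly. Ska1 had 6.49, 6.61 and 6.01 FPKM in Ctrl, 5.52, 6.57 and 6.36 FPKM in Ep1, and 2.79, 3.08 and 2.66 FPKM in Ep2, and Ep2 was below every other library (log2 fold change -0.94, SE 0.07, adjusted p = 1.14e-05). Ska3 had 12.7, 12.96 and 13.3 FPKM in Ctrl, 13.3, 13.2 and 14.7 FPKM in Ep1, and 8.22, 7.96 and 6.86 FPKM in Ep2, also with no overlap (log2 fold change -0.69, SE 0.07, adjusted p = 4.2e-05). Ska2, the small subunit that holds the others together, fell less, with 11.4, 12.5 and 12.4 FPKM in Ctrl, 13.2, 13.9 and 15.4 FPKM in Ep1, and 10.4, 9.87 and 9.63 FPKM in Ep2; its Ep1 libraries lay above Ctrl and its Ep2 libraries below (log2 fold change -0.26, SE 0.06, adjusted p = 0.00727).

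In the Knl1 complex the subunits moved in opposite directions. Knl1, the scaffold on which the checkpoint kinase Bub1 is recruited, had 9.97, 10.02 and 10.2 FPKM in Ctrl, 9.62, 10.4 and 11.4 FPKM in Ep1, and 5.39, 5.83 and 5.65 FPKM in Ep2, so Ep2 fell clear of both groups (log2 fold change -0.74, SE 0.06, adjusted p = 1.44e-05). Zwint, its partner, which helps to recruit the Rod-Zw10-Zwilch complex, had 62.6, 62.3 and 66.5 FPKM in Ctrl, 69.7, 72.4 and 68.5 FPKM in Ep1, and 87.6, 84.7 and 81.7 FPKM in Ep2. Zwint was the second most abundant of the 37 genes in Ctrl, and every Ep2 library was above every Ctrl and Ep1 library (log2 fold change 0.40, SE 0.04, adjusted p = 7.01e-05).

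The Mis12 complex, which links the CCAN to Ndc80 and Knl1, fell in all 4 subunits, and 1 passed the second threshold. Pmf1 had 26.1, 23.5 and 22.6 FPKM in Ctrl, 20.6, 24.2 and 24.6 FPKM in Ep1, and 12.2, 12.8 and 10.997 FPKM in Ep2, at 49.8% of the Ctrl mean in Ep2 and below all other libraries (log2 fold change -0.95, SE 0.08, adjusted p = 2.11e-05). Nsl1 (-0.49), Dsn1 (-0.34) and Mis12 (-0.15) had smaller log2 fold changes, and the call of Mis12 was lost with voom (adjusted p = 0.0563) and after the length correction (adjusted p = 0.251).

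Of the CCAN, 15 genes were among the 37: 13 fell, 4 of them past the second threshold, Cenpc1 rose and Cenpt did not pass. The median log2 fold change of these 15 genes was -0.38. Itgb3bp, the gene of the CCAN subunit CENP-R, has no Cenp symbol and is counted below with the other kinetochore-associated genes. Itgb3bp did not pass, with means of 1.06 FPKM in Ctrl and 1.05 FPKM in Ep2 (log2 fold change -0.0057). Cenpm, a subunit of the Cenph-Cenpi-Cenpk arm, had the lowest value of the 37, with 13.1, 13.2 and 14.2 FPKM in Ctrl, 11.9, 13.6 and 12.4 FPKM in Ep1, and 4.44, 6.38 and 4.73 FPKM in Ep2. No Ep2 library came near Ctrl or Ep1 (log2 fold change -1.24, SE 0.10, adjusted p = 1.88e-05). Cenph, of the same arm, had 10.4, 10.9 and 12.1 FPKM in Ctrl, 10.5, 12.5 and 12.3 FPKM in Ep1, and 5.88, 6.65 and 5.74 FPKM in Ep2, with the Ep2 group again apart (log2 fold change -0.77, SE 0.08, adjusted p = 6.13e-05).

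Cenpu, which docks the kinase Plk1, was among the least abundant, with 2.53, 2.33 and 2.33 FPKM in Ctrl, 2.32, 2.82 and 2.49 FPKM in Ep1, and 1.27, 1.002 and 0.919 FPKM in Ep2, and all Ep2 libraries were below the others (log2 fold change -0.72, SE 0.09, adjusted p = 0.000119). Cenps, a histone-fold protein that also acts in the Fanconi anaemia pathway, had 10.9, 11.6 and 10.9 FPKM in Ctrl, 10.2, 10.4 and 11.1 FPKM in Ep1, and 6.13, 7.78 and 6.28 FPKM in Ep2, without overlap (log2 fold change -0.66, SE 0.08, adjusted p = 0.000116). The remaining network genes that fell had log2 fold changes of -0.51 for Cenpp, -0.50 for Cenpx, -0.46 for Cenpn, -0.38 for Cenpl, -0.35 for Cenpo, -0.35 for Cenpq, -0.34 for Cenpi, -0.32 for Cenpw and -0.30 for Cenpk. The pseudocount of 1 shrinks the change of such low genes: with 0.1 in its place, the log2 fold change was -0.85 for Cenpp, which then passed the second threshold, -1.11 for Cenpu and -0.49 for Cenpk. The call of Cenpw was lost in some alternatives, with adjusted p = 0.0742 when no filter on low values was used.

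Cenpc1, the gene of CENP-C, which binds CENP-A nucleosomes and carries the Mis12 complex, rose. It had 4.64, 3.98 and 4.46 FPKM in Ctrl, 4.93, 5.26 and 5.34 FPKM in Ep1, and 5.81, 5.64 and 6.18 FPKM in Ep2, so the Ep2 libraries lay above those of Ctrl (log2 fold change 0.36, SE 0.06, adjusted p = 0.00100). Cenpt, the other arm through which the network recruits Ndc80, had 5.45 ± 0.0716 FPKM in Ctrl and 5.26 ± 0.397 FPKM in Ep2 (SD, n = 3), and the Ep2 and Ctrl libraries overlapped (log2 fold change -0.05, SE 0.07, adjusted p = 0.621, 95% confidence interval -0.21 to 0.12).

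CENP-A and the proteins that load it fell in 4 of 4 genes, by a median of -0.39 on the log2 scale. Oip5, a subunit of the Mis18 complex that prepares centromeres for new CENP-A, was the one past the second threshold, with 8.37, 9.78 and 8.996 FPKM in Ctrl, 10.3, 9.99 and 10.998 FPKM in Ep1, and 6.08, 5.23 and 4.06 FPKM in Ep2. Ep1 lay above Ctrl and Ep2 below it (log2 fold change -0.73, SE 0.11, adjusted p = 0.00048). Cenpa itself had 19.7 ± 0.171 FPKM in Ctrl and 14.9 ± 2.07 FPKM in Ep2 (log2 fold change -0.39, SE 0.09, adjusted p = 0.00394), and Hjurp, its chaperone, had 30.4 ± 1.202 FPKM in Ctrl and 22.9 ± 0.614 FPKM in Ep2 (log2 fold change -0.39, SE 0.04, adjusted p = 7.26e-05). Mis18a had 7.63 ± 0.187 FPKM in Ctrl and 6.30 ± 1.09 FPKM in Ep2 (log2 fold change -0.25, SE 0.09, adjusted p = 0.0443), and this call was lost in 12 of 17 alternatives, with adjusted p up to 0.141.

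Of the corona proteins, Cenpe, a kinesin that moves chromosomes to the spindle equator, had 13.2, 13.01 and 13.6 FPKM in Ctrl, 12.3, 13.8 and 13.9 FPKM in Ep1, and 6.79, 6.67 and 6.92 FPKM in Ep2. Its Ep2 libraries were nearly equal, and its adjusted p was the lowest of the 37 genes (log2 fold change -0.87, SE 0.05, adjusted p = 4.5e-06). Cenpf, a large microtubule-binding protein, had 7.45 ± 0.318 FPKM in Ctrl and 4.76 ± 0.0618 FPKM in Ep2 (SD, n = 3), just short of the second threshold (log2 fold change -0.55, SE 0.06, adjusted p = 5.35e-05). With a pseudocount of 0.1 in the limma fit, Cenpf passed it (log2 fold change -0.63, adjusted p = 4.61e-05).

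The 3 genes outside the complexes differed. Cenpv had 10.9, 12.7 and 11.3 FPKM in Ctrl, 11.3, 13.2 and 11.7 FPKM in Ep1, and 6.98, 7.73 and 6.55 FPKM in Ep2, with Ep2 below all others (log2 fold change -0.64, SE 0.08, adjusted p = 0.000147). Cenpb, which binds a repeat in centromeric DNA, had 75.6 ± 4.41 FPKM in Ctrl and 65.2 ± 3.81 FPKM in Ep2 (log2 fold change -0.21, SE 0.06, adjusted p = 0.0107), and Cenpj, a centriole protein, had 2.78 ± 0.324 FPKM in Ctrl and 2.41 ± 0.138 FPKM in Ep2 with overlapping libraries (log2 fold change -0.15, SE 0.08, adjusted p = 0.167).

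Some values may hold fragments of a neighbour. Cenpb lies inside the span of Spef1 (at up to 2.78 FPKM) on the same strand, where counting by strand would not separate them. For neighbours on the opposite strand, the sources used here do not say whether counting used strand. Such neighbours overlap Oip5 (Nusap1, 172 bases), Mis12 (Derl2, 231 bases), Cenpq (Mut, 363 bases), Ska3 (Sap18, 78 bases), Cenpu (Primpol, 4414 bases), Cenpo (Adcy3, 17522 bases), Cenpp (Ippk, 551 bases, at up to 6.45 FPKM) and Cenpk (Ppwd1, 233 bases, at up to 3.18 FPKM), among others at lower levels. These are overlaps of whole spans, introns included, and without strand only the reads inside them cannot be told apart.

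Ep2 was also lower than Ep1. Of the 37 genes, 32 were lower with an adjusted p below 0.05 (background 25.2%), 16 of them past the second threshold (background 3.97%), and Zwint was higher (log2 fold change 0.27, SE 0.04, adjusted p = 0.00107). The median log2 fold change was -0.49. Cenpc1 did not pass (log2 fold change 0.15, SE 0.06, adjusted p = 0.0689), nor did Cenpt, Cenpb and Cenpj. This comparison shares the Ep2 libraries with that of Ep2 and Ctrl. In 5 genes (Oip5, Cenpi, Cenpq, Mis12 and Ska2) all Ep1 libraries lay above and all Ep2 libraries below all Ctrl libraries, against a background of 2.41%. That background also counts genes that did not fall in Ep2.

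The uneven changes altered the levels of partner subunits relative to each other. For 10 pairs, chosen after the values were seen and so given without a test, the FPKM of a subunit was divided by that of its partner in each library. The Ep2 libraries lay above all Ctrl libraries in 3 ratios, below in 6, and overlapped in 1 (Spc25 over Spc24). The share of other gene pairs whose ratios separate in this way was not computed, so these counts are not a result about partners. Zwint over Knl1 was 6.33 ± 0.149 in Ctrl, 6.74 ± 0.632 in Ep1 and 15.1 ± 1.011 in Ep2 (mean and SD of 3 libraries). Cenpc1 over Cenpa was 0.222 ± 0.0189 in Ctrl, 0.247 ± 0.00523 in Ep1 and 0.402 ± 0.0797 in Ep2, and Pmf1 over Mis12 was 0.887 ± 0.0875 in Ctrl, 0.780 ± 0.0557 in Ep1 and 0.491 ± 0.0513 in Ep2. Zwint over Knl1 and Cenpc1 over Cenpa rose, and Pmf1 over Mis12 fell, by more than the spread of the libraries.

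Ska1 over Ska2 was 0.527 ± 0.0421 in Ctrl, 0.434 ± 0.0322 in Ep1 and 0.286 ± 0.0236 in Ep2. Cenpm over Cenpi was 2.83 ± 0.0252 in Ctrl, 2.41 ± 0.142 in Ep1 and 1.45 ± 0.193 in Ep2, and Cenpt over Cenps was 0.489 ± 0.0227 in Ctrl, 0.489 ± 0.0545 in Ep1 and 0.794 ± 0.143 in Ep2. Within the Ndc80 complex the ratios moved less: Nuf2 over Ndc80 was 1.06 ± 0.0860 in Ctrl, 1.004 ± 0.00532 in Ep1 and 0.881 ± 0.0683 in Ep2, and Spc24 over Ndc80 was 1.72 ± 0.0648 in Ctrl, 1.52 ± 0.06999 in Ep1 and 1.32 ± 0.253 in Ep2.

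**Figure D2:**
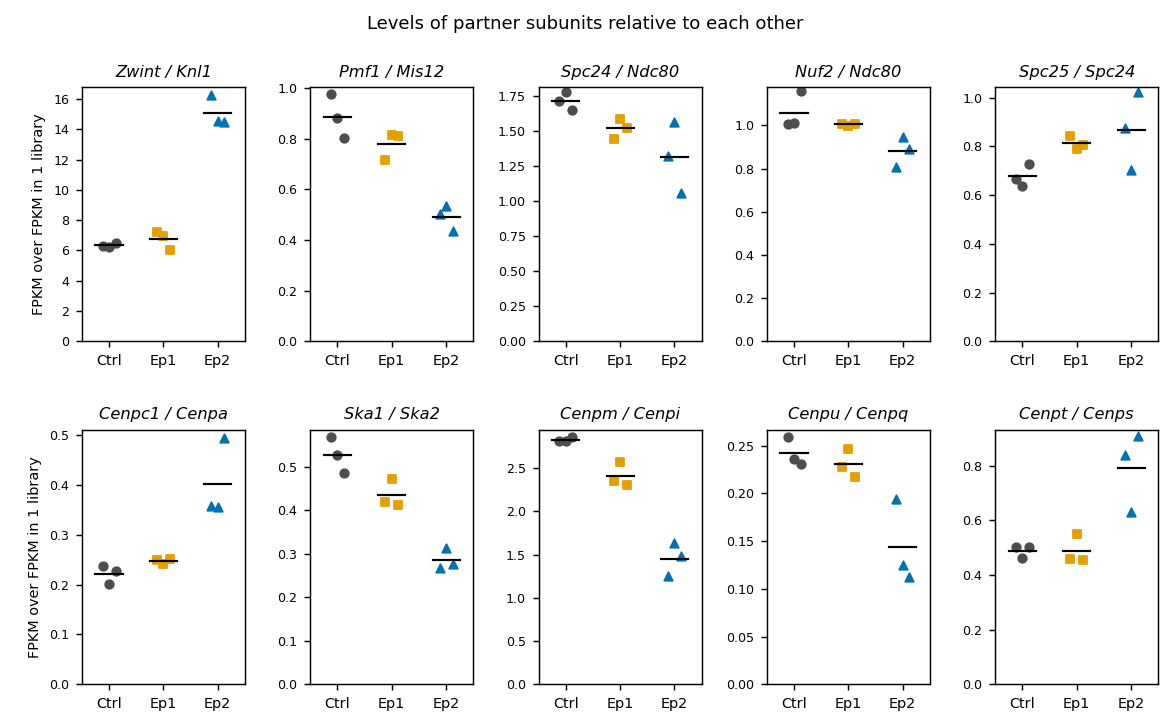
Ratio of the FPKM of 2 partner subunits in each library (points) with the mean of each group (line), for 10 pairs and 3 libraries per group; each axis starts at 0. Zwint over Knl1 goes from a mean of 6.33 in Ctrl to 15.1 in Ep2, while Spc25 over Spc24 overlaps between these groups.

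Other genes that work at the kinetochore fell with them, and their counts are to be read against the same backgrounds (29.3% lower and 5.87% past the second threshold in Ep2, and 11.3% past the adjusted p in Ep1). Of 10 checkpoint and corona genes, 10 were lower in Ep2 and 4 passed the second threshold, and the median was -0.53 on the log2 scale: Bub1b, the checkpoint kinase BubR1, had 67.2 ± 1.83 FPKM in Ctrl and 31.4 ± 1.39 FPKM in Ep2 (log2 fold change -1.07, SE 0.06, adjusted p = 3.36e-06), and Spdl1 (-0.85) and Ttk (-0.70) followed. Of 6 genes of the chromosomal passenger complex and shugoshins, which correct wrong attachments and protect cohesion, 6 fell, 4 past the second threshold, with a median of -0.79, led by Aurkb (-1.14), Incenp (-0.94) and Birc5 (-0.79). Of 10 other kinetochore-associated genes, 7 fell, 3 past the second threshold, and 3 did not pass, with a median of -0.39, led by Kif2c (-1.31), Knstrn (-0.91) and Spag5 (-0.74). In Ep1 none of the genes of the first and second of these lists passed, and in the last Kif2c (-0.26) was lower and Kif18a (0.23) was higher. Of a list of 7 genes tied to proliferation, 5 fell in Ep2, 3 of them past the second threshold, with Top2a at -0.84, Mki67 at -0.78 and Ccnb1 at -0.64. The 2 that did not pass were the inhibitors of cyclin-dependent kinases, Cdkn1a (-0.28, adjusted p = 0.0621) and Cdkn1b (0.08, adjusted p = 0.577). The part of these genes in the results was not tested.

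**Figure D3:**
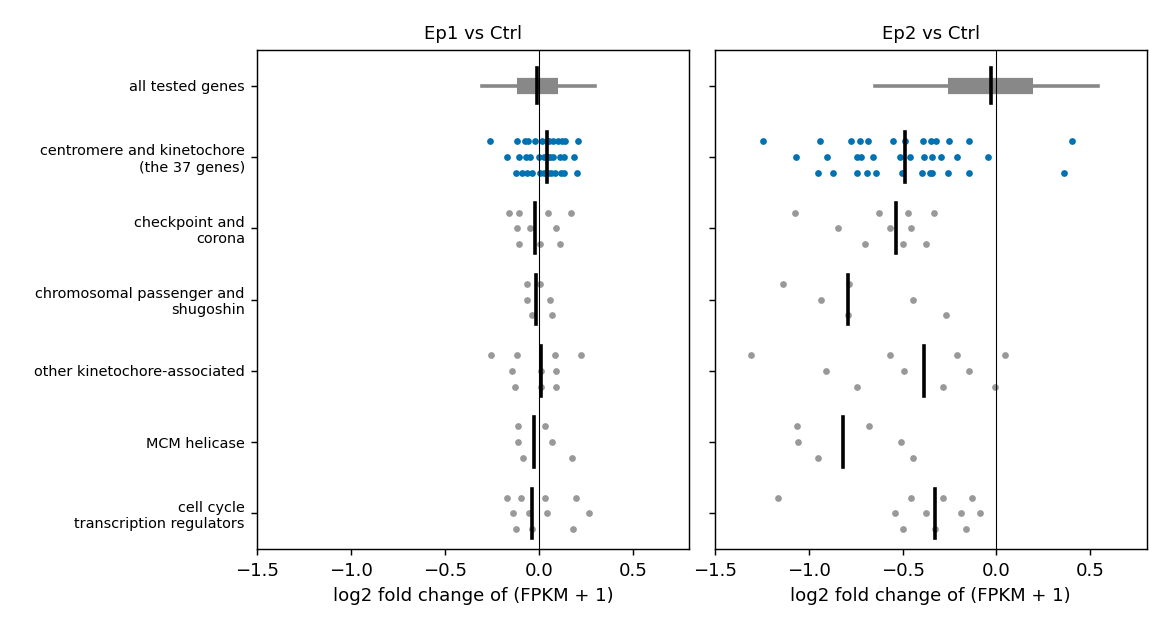
Log2 fold change of (FPKM + 1) of single genes (points) in the 37 centromere and kinetochore genes and 5 other lists, for Ep1 and Ep2 against Ctrl; black lines are medians, and the grey bar and line of all 11727 tested genes span the 25th to 75th and 5th to 95th percentiles. In Ep2 the median of the 37 genes is -0.49, beside -0.03 for all tested genes.

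The promoters were then compared with the changes. A RefSeq promoter of 300 bases (250 before to 50 after the start) was used for 34 of the 37 genes. Those of Spc24 (log2 fold change -1.07 in Ep2), Ska1 (-0.94) and Nsl1 (-0.49) were not analysed here. The medians by motif therefore leave out these genes, which include some of the largest falls. A CHR was found in 14 of 34 (41.2%), beside 21.7% of all 27025 genes with a promoter and 16.0% of the 8342 of them that were tested, and in 10 of the 14 it lay within 50 bases of the start. All 14 genes with a CHR fell in Ep2, as did 16 of the 20 without, and the median log2 fold change was -0.62 with and -0.35 without, given with no test. The share that fell among all 1336 tested genes with a CHR was not computed. Most of the 34 genes fell whether or not they carry one, and the part of the motif in the fall was not tested. Mis18a and Cenpw, whose calls were lost in some alternatives, are among the 14. The 2 genes that rose, Zwint and Cenpc1, hold NF-Y boxes and no CHR in this window, but so do genes that fell, such as Cenpe and Cenpu.

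An NF-Y box was found in 21 of 34 (61.8%), beside 41.1% of all genes and 43.4% of tested genes, and here the median log2 fold change was -0.39 with and -0.51 without. An E2F site was found in 11 of 34 (32.4%), beside 7.79% and 14.9%, with medians of -0.35 with and -0.51 without. A CHR together with an NF-Y box was found in 10 of 34 (29.4%), beside 8.61% and 6.81%. Matches of different motifs shared bases in Cenpw and Ska2. A match describes these letters only.

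**Figure D4:**
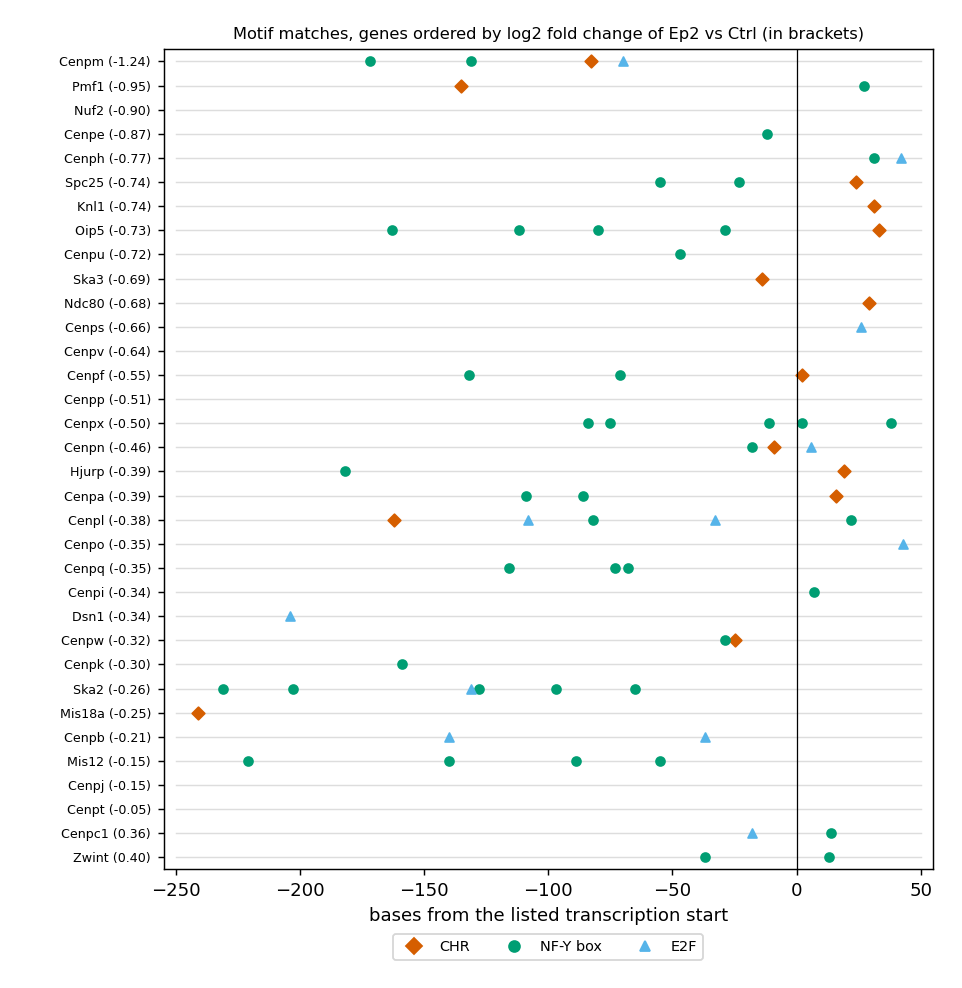
Position of motif matches in the promoters of 34 genes, in bases from the transcription start, with genes ordered by log2 fold change of Ep2 against Ctrl; for genes with more than 1 listed promoter (Cenpk and Cenpx) the most upstream in coordinates is drawn. CHR matches are found in 14 genes and not in Zwint or Cenpc1 at the bottom. All 14 fell in Ep2, as did 16 of the 20 genes without a match.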

How the data were processed

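The authors deposited 1 FPKM value per gene and library, in a joint table and in 9 single-library tables that hold the same values (0 differences). The paper's methods name 150 bp paired-end reads on an Illumina HiSeq2500 and GRCm39, the submitters' processing notes list Bowtie 0.12.2 and mm8, and the coordinates in the files are those of GRCm38; the counting tool is not given in the sources used here. The labels call the cells rat in the growth protocol and Mus musculus as organism. FPKM times gene length was a whole multiple of 1 step per library (tolerance 0.05 of a fragment), which gave 16240688 to 19509225 fragments per library; a count of 0 allows up to 3 fragments. Libraries of a group differed by more than counting noise (chi-square per degree of freedom 2.81 to 15.2).

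The 11727 genes with at least 1 FPKM in at least 3 libraries were tested on log2(FPKM + 1), a scale that understates the change of low genes, in 1 limma fit (version 3.58.1, R 4.3.3, trend and robust) of all 9 libraries, with Benjamini-Hochberg adjustment within each comparison. The call threshold was an adjusted p below 0.05, and the second threshold added a log2 fold change of more than 0.6 in size. The scripts were tested on simulated data. Every gene found by the name rule is named, and from each other list up to 3 genes with the largest change in Ep2. The members and lists were chosen with earlier results of these data known. Alternatives were median centring, voom on recovered fragments, no filter, a stricter filter (5 FPKM), a pseudocount of 0.1, only the groups compared, a replicate block, a length correction (lowess span 0.5), and leaving out each library. Tables used pandas 2.3.3 and figures matplotlib 3.10.9. Promoters came from RefSeq (GRCm38.p6).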

Additional observations from a re-analysis of the deposited data

Results flagged for a closer look

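In 5 of the 37 genes, all Ep1 libraries lay above and all Ep2 libraries below the Ctrl libraries, which was so for 2.41% of all tested genes. That share also counts genes that did not fall in Ep2. All Ep2 libraries lay below Ctrl in 33 of the 37 genes, and in 3830 of all tested genes, of which 283 had the pattern. Genes of the other lists had it too: Bub1, Kif18a, Ckap5, Mcm4, Mcm6, Lin9, Lin54, Rbl1, Mki67 and Pcna. The log2 fold changes in Ep1 and Ep2 against Ctrl were 0.19 and -0.73 for Oip5, 0.11 and -0.34 for Cenpi, 0.14 and -0.35 for Cenpq, 0.12 and -0.15 for Mis12, and 0.21 and -0.26 for Ska2. None of the 5 rises in Ep1 had an adjusted p below 0.05 in the limma fit of all libraries, but that of Ska2 passed with the stricter filter (adjusted p = 0.0473), after the length correction (0.0461) and without Ep2 replicate 1 (0.0459). The pattern by which the 5 genes were picked already places every Ep2 library below every Ep1 library. The limma values of Ep2 against Ep1 are therefore no further support for it, and 32 of the 37 genes were lower in that comparison. They were: Oip5 (log2 fold change -0.91, SE 0.11, adjusted p = 0.000196), Cenpi (log2 fold change -0.46, SE 0.06, adjusted p = 0.000492), Cenpq (log2 fold change -0.49, SE 0.08, adjusted p = 0.000936), Mis12 (log2 fold change -0.27, SE 0.04, adjusted p = 0.00100) and Ska2 (log2 fold change -0.47, SE 0.06, adjusted p = 0.000394).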

How the results depend on the processing

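No gene called in a comparison changed sign under any alternative. Of the 33 genes lower in Ep2 than in Ctrl, 30 passed in every alternative in which they were tested; Mis18a, Mis12 and Cenpw did not. These calls were lost in some alternatives that kept all libraries, and also when single libraries were left out. Mis12 was lost without Ctrl replicate 3 or Ep2 replicate 2. Cenpw was lost without Ctrl replicate 2, Ctrl replicate 3 or Ep2 replicate 3 (adjusted p up to 0.0880). Mis18a was lost when any library but Ep2 replicate 1 was left out, also those of Ep1, which do not enter its log2 fold change of Ep2 against Ctrl. For Ep2 against Ep1, Cenpx, Cenpw and Mis18a were lost in some alternatives, and Cenpc1 passed with median centring (adjusted p = 0.0411), voom (0.0321) and the length correction (0.0441). The count past the adjusted p ran from 32 to 35 when single libraries were left out, and that with the second threshold from 13 to 15 (15 to 18 for Ep2 against Ep1, where the count past the adjusted p was 30 to 33). With a pseudocount of 0.1, Cenpf and Cenpp also passed the second threshold in Ep2 against Ctrl. For Ep1 against Ctrl, 1 gene passed with voom, beside 1993 of all 14112 genes tested there. After the length correction 1 passed, beside 1310 of 11727. The stricter filter tested 30 of the 37 genes and 2 passed, beside 1342 of all 7535. When single libraries were left out, 0 to 2 passed (2, Ska2 and Zwint, without Ep2 replicate 1). Of all tested genes, 192 of 11658 passed without Ctrl replicate 2, the fewest, and 2192 of 11590 without Ep2 replicate 1, the most. The Ep1 median ran from 0.0041 to 0.095, the latter without Ep1 replicate 1. The median log2 fold change of Ep2 against Ctrl was -0.46 with median centring, -0.54 with voom, -0.53 with the stricter filter, -0.54 with a pseudocount of 0.1, -0.43 after the length correction, and -0.51 to -0.43 without single libraries. For Ep2 against Ep1 it was -0.61 with voom, -0.58 with the stricter filter, -0.62 with a pseudocount of 0.1, and -0.54 to -0.48 without single libraries. The cause was not tested.

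Replicate numbers did not pair the libraries: deviations from the group means correlated by -0.056 to 0.074 in 9 pairs with the same number and by -0.11 to 0.15 in 18 others. With the replicate block, 1 gene passed in Ep1 (Cenpx, adjusted p = 0.0353), beside 1051 of all 11727 tested genes. In Ep2 against Ctrl 35 genes passed, beside 6110 of all tested genes.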

Other observations

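Genes of DNA replication and of cell cycle transcription moved in the same comparison. All 6 subunits of the MCM helicase, which opens DNA at replication origins, fell in Ep2 against Ctrl, 4 past the second threshold, with a median log2 fold change of -0.82. Mcm7 had 76.5 ± 2.48 FPKM in Ctrl and 36.1 ± 1.64 FPKM in Ep2 (SD, n = 3; log2 fold change -1.06, SE 0.05, adjusted p = 1.84e-06), Mcm5 had -1.06 and Mcm2 -0.95 on the log2 scale. Of all tested genes, 29.3% were lower and 5.87% passed the second threshold. In Ep1, Mcm4 alone of the 6 passed, and it was higher (background 11.3% in either direction).

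Of 11 regulators of cell cycle transcription, 8 fell in Ep2, 1 past the second threshold, and 3 did not pass, with a median of -0.33; the share past the second threshold is close to the 5.87% of all tested genes. Mybl2, the B-Myb protein that joins the MuvB complex at CHR promoters, had 43.4 ± 2.02 FPKM in Ctrl and 18.8 ± 0.467 FPKM in Ep2 (log2 fold change -1.16, SE 0.05, adjusted p = 1.47e-06). Foxm1, a G2/M activator, had -0.54, and E2f1 had -0.50. In Ep1, Lin9 and Lin54, subunits of MuvB, were higher and passed, 2 of 11, which is close to the background of 11.3%.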
